A study of Mus musculus with 12 samples.

Results

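The 10 genes described here encode enzymes that make phosphatidylcholine (PC) and phosphatidylethanolamine (PE), the major phospholipids of liver membranes. They are *Chka*, *Chkb*, *Pcyt1a*, *Etnk1*, *Etnk2*, *Pcyt2*, *Cept1*, *Pisd*, *Pemt* and *Lpcat3*. They were taken by symbol from a table of 48795 genes, in which each had a single row. All 10 were among the 13812 genes that passed the filter on low counts, and were measured by RNAseq in whole liver. The 12 livers came from female littermates aged 4 months on normal chow, of the genotypes NTS WT (*Nts*+/+) and NTS KO (*Nts*-/-), the latter described as a whole body knockout of the gut peptide neurotensin. Of each genotype, 3 mice were fed ad libitum and 3 were fasted for 22 h, which gave 4 groups of 3 livers.

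In the liver, PC is built on the CDP-choline route, in which choline is phosphorylated, activated as CDP-choline and joined to diacylglycerol. PE is built in the same manner from ethanolamine, or in mitochondria by decarboxylation of phosphatidylserine. Hepatocytes can also methylate PE to PC, and PC goes into membranes, bile and the coat of very low density lipoprotein.

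The libraries held between 21999647 and 45273069 counts, so that 3 counts, taken as the floor of detection, equalled 0.0663 to 0.136 CPM (counts scaled to the total of the library). Hepatocyte markers were abundant, with a summed level of 117715 to 140543 CPM over 8 genes in the 12 livers, most of it from *Alb*. The *Nts* gene itself had counts only in livers labelled *Nts*-/-, which the labels alone do not explain. It had 0 counts in all 6 libraries labelled *Nts*+/+, 46, 40 and 15 counts in fed livers labelled *Nts*-/- and 12, 4 and 18 counts in the fasted ones. The cause was not tested. Below, *Nts*+/+ and *Nts*-/- are therefore the labels of the libraries. An exchange of the labels, if there was one, would turn every genotype direction around. In whole liver RNA, fewer cells of a type and less RNA per cell cannot be told apart.

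Fasting moved the members in opposite directions. In *Nts*+/+ livers, *Chkb* and *Etnk2* rose while *Chka*, *Pcyt2* and *Pemt* fell, so 5 of 10 members passed an adjusted *p* of 0.05 in edgeR, where 18.1% of the 13812 tested genes passed. That is 2 members higher, where 8.91% of all genes were higher, and 3 lower, where 9.19% were lower. In livers labelled *Nts*-/-, *Chkb* and *Etnk2* rose and *Chka* fell, and these 3 of 10 compare with 16.8% of all genes. The split was 2 higher beside 7.7% of all genes and 1 lower beside 9.14%. The median log2 fold change of the members was 0.0092 in *Nts*+/+ and −0.11 in *Nts*-/-, and that of all tested genes was −0.0032 and −0.011. The fed and fasted mice did not overlap for 9 members in *Nts*+/+ and 6 in *Nts*-/-, beside 36.0% and 35.2% of all genes.

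**Figure D1:**
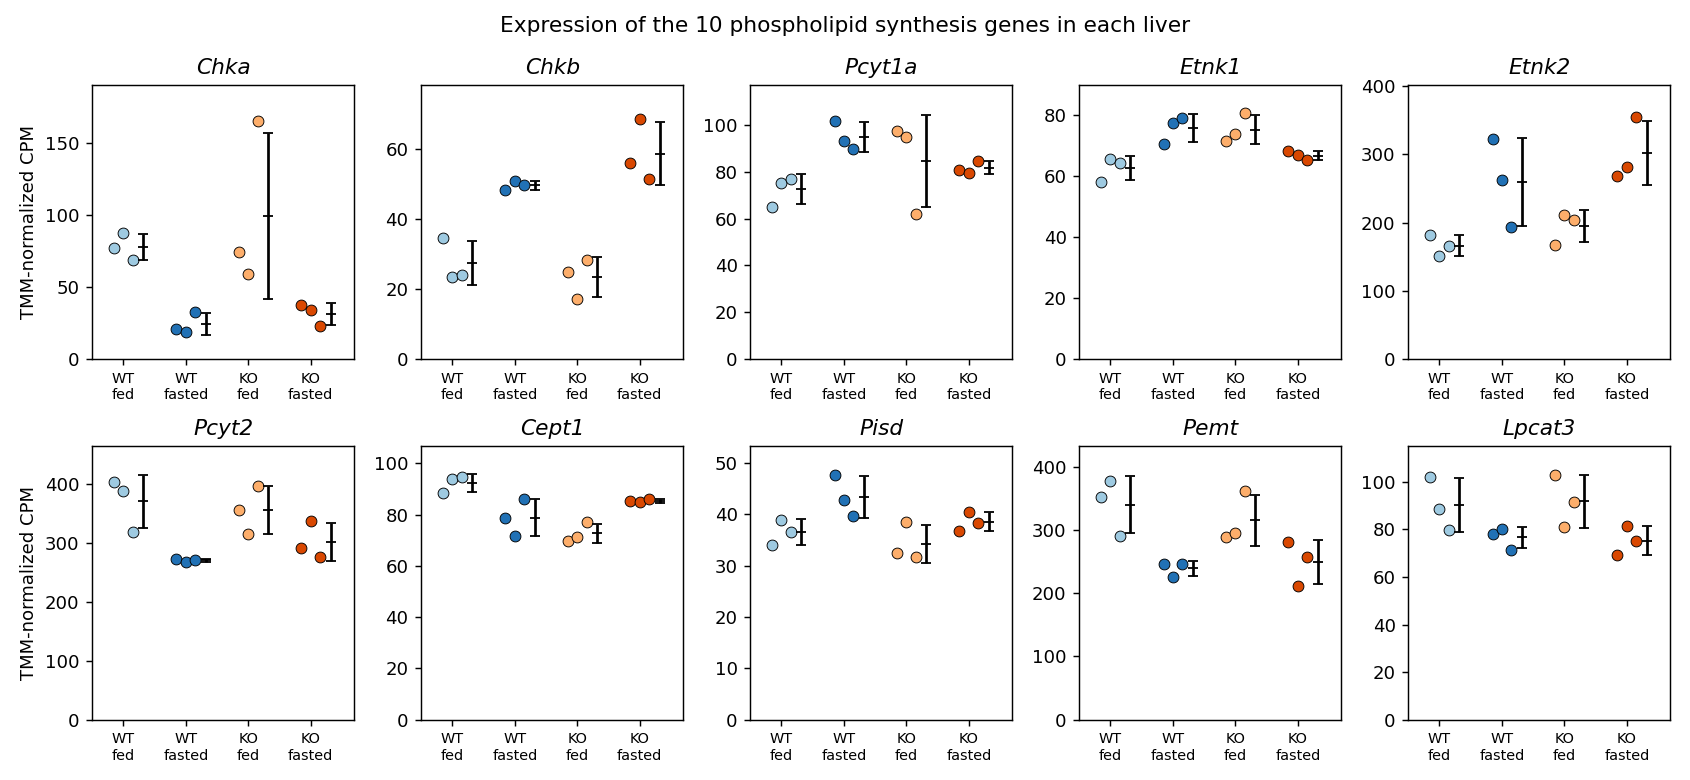
TMM-normalized CPM (vertical axes, starting at 0) of the 10 members in each of the 12 livers, with 3 livers a group. Points are livers and the bars beside them are the mean ± SD. The fasted livers lie below the fed ones for *Chka* and above them for *Chkb* and *Etnk2* in both genotypes, and 1 fed *Nts*-/- liver reaches 165 CPM for *Chka*.

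Choline kinase phosphorylates choline in the first step of the CDP-choline route, and it is encoded by *Chka* (chromosome 19, 3851773 to 3894369 in GRCm38, plus strand) and *Chkb* (chromosome 15, 89416405 to 89429908, minus strand). The promoters of this pair are printed because these were the members that moved most, in opposite directions. They are the RefSeq windows of GRCm38.p6, from 250 bases before to 50 bases after the annotated start, and 9 of the 10 members had an entry there. The capitals mark the CCAAT box, which reads ATTGG where it lies on the other strand. The *Chka* window is chr19:3851523-3851822 on the plus strand and the *Chkb* window is chr15:89429878-89430177 on the minus strand.
Chka: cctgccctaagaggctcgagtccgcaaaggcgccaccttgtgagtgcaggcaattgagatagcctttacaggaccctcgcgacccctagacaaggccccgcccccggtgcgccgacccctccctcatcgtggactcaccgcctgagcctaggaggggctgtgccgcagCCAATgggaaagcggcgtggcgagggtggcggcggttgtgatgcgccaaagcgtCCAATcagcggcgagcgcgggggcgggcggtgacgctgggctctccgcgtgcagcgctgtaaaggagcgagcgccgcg
Chkb: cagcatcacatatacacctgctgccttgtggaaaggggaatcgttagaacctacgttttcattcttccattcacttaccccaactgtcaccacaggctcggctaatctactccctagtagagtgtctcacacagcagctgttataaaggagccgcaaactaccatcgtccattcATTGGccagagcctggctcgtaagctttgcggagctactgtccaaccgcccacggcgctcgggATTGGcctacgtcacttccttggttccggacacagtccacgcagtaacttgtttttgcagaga

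Each of these windows held 2 CCAAT boxes, at −82 and −28 from the start in *Chka* and at −76 and −13 in *Chkb*. The box is common, and 37.4% of all 32851 promoter windows held it on either strand. Among the other members it was found in windows of *Cept1*, *Lpcat3*, *Pemt* and *Pisd*. None of the 15 member windows held the cAMP response element TGACGTCA (1.79% of all windows), the E-box CACGTG (7.15%) or the FoxO site GTAAACA (3.65%). Nor did any hold a pair of AGGTCA half-sites in the same orientation, spaced by 1 base (0.0396% of all windows) or by 4 bases (0.0152%). Such a match or its absence describes the letters in the window and no binding. The median G+C content was 65.3% in the member windows and 52.7% in all windows.

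*Chka* fell by over 3-fold in both genotypes. The fed *Nts*+/+ livers had 77.2, 87.2 and 69.0 TMM-normalized CPM and the fasted ones had 20.9, 18.7 and 32.9. The fed livers labelled *Nts*-/- had 74.1, 58.7 and 165 CPM and the fasted ones had 37.2, 33.7 and 22.9. Every fasted liver was below every fed liver of its genotype, and the liver of mouse 319 stood apart among the fed *Nts*-/- livers. The log2 fold change was −1.68 ± 0.38 (SE; edgeR adjusted *p* = 0.0126) in *Nts*+/+, a 3.21-fold fall, and −1.67 ± 0.37 (edgeR adjusted *p* = 0.0133) in *Nts*-/-, a 3.18-fold fall. Without mouse 319 the *Nts*-/- value was −1.09 with an edgeR adjusted *p* of 0.0122. The call was lost in *Nts*+/+ without mouse 282 (−1.53, adjusted *p* = 0.0607) and in *Nts*-/- without mouse 295 (−1.49, adjusted *p* = 0.0523) or when the fit held only the 6 mice compared (adjusted *p* = 0.0504).

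*Chkb* rose where *Chka* fell. It had 34.6, 23.5 and 24.1 CPM in fed *Nts*+/+ livers and 48.3, 50.9 and 49.7 CPM in the fasted ones. Livers labelled *Nts*-/- had 24.9, 17.1 and 28.2 CPM in the fed state and 55.9, 68.6 and 51.4 CPM after fasting. The fed and fasted livers did not overlap in either genotype, and the fasted *Nts*-/- livers were also all above the fasted *Nts*+/+ ones. The rise was 0.85 ± 0.19 on the log2 scale (edgeR adjusted *p* = 0.00786), or 1.81-fold, in *Nts*+/+ and 1.32 ± 0.19 (edgeR adjusted *p* = 0.000468), or 2.5-fold, in *Nts*-/-. It was called in both genotypes under every alternative run. With 1 mouse left out the log2 values were 0.76 to 1.06 in *Nts*+/+ and 1.15 to 1.48 in *Nts*-/-. The highest value under any alternative was 1.06 and 1.53, which included counts of *Cpt1b* and so is not a value of *Chkb* alone.

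The *Chkb* gene model spans the whole model of *Cpt1b*, which lies on the same strand and shares 9459 bases with it. *Cpt1b* encodes the muscle form of carnitine palmitoyltransferase 1 and had 1 to 430 counts. The counts of *Chkb* were fractional in 12 of 12 libraries, as they are where RSEM divides a read between gene models. With both genes summed, the log2 fold change on fasting was 1.06 ± 0.21 (edgeR adjusted *p* = 0.0051) in *Nts*+/+ and 1.53 ± 0.22 (edgeR adjusted *p* = 0.000485) in *Nts*-/-. These lie above the 0.85 and 1.32 of *Chkb* alone. The sum cannot show how shared reads were divided, and the part of *Cpt1b* reads in the rise of *Chkb* was not tested. An RNA from the other strand, C730034F03Rik, overlaps *Chkb* by 320 bases and had 7 to 39 counts.

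Within each liver, the log2 ratio of *Chka* to *Chkb* counts does not depend on scaling between libraries. It was 1.16, 1.89 and 1.52 in fed *Nts*+/+ livers and −1.21, −1.44 and −0.59 in fasted ones. Among livers labelled *Nts*-/- it was 1.57, 1.78 and 2.55 in the fed state and −0.59, −1.03 and −1.16 after fasting. Every fasted liver was below every fed liver. The ratio includes the unequal lengths of the genes, so its sign does not compare their levels. The mean differences were −2.60 and −2.89 (two-sided exact permutation *p* = 0.1 in each, the smallest that 3 against 3 livers allow, and 0.267 after adjustment over 16 ratio tests).

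**Figure D2:**
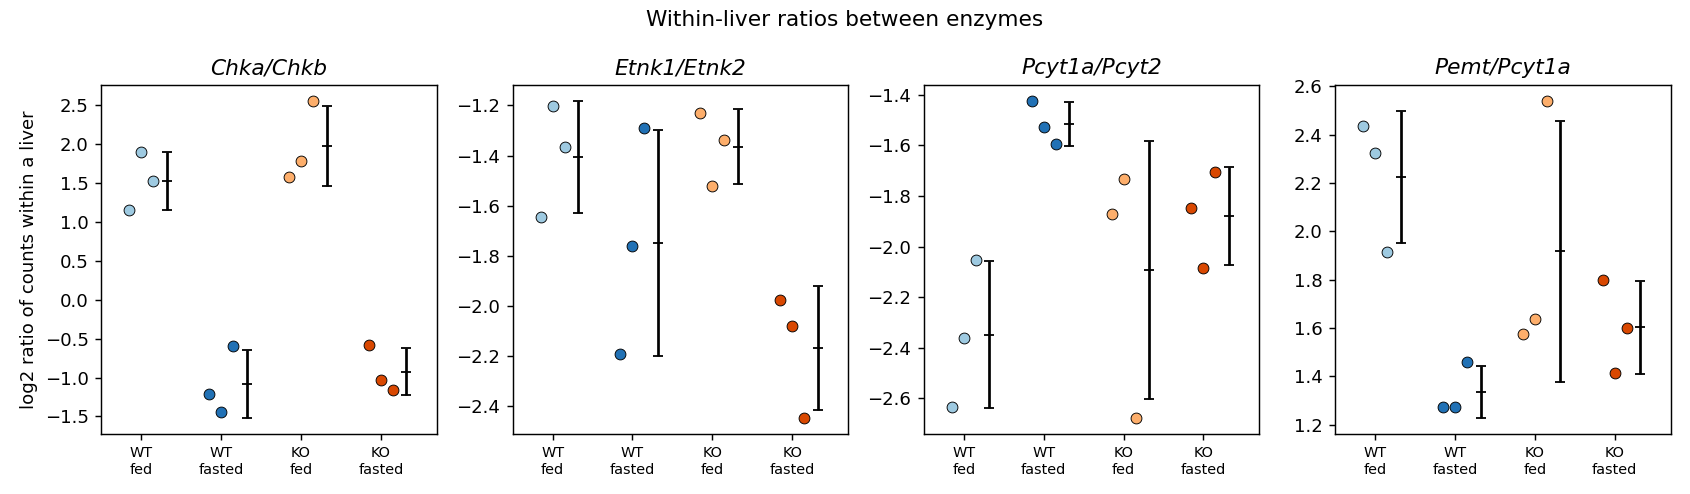
Log2 ratio of the counts of 2 enzymes within each of the 12 livers (vertical axes, which do not start at a common value), with 3 livers a group. Points are livers and the bars beside them are the mean ± SD. *Chka*/*Chkb* is lower in every fasted liver than in every fed liver, whereas *Pcyt1a*/*Pcyt2* and *Pemt*/*Pcyt1a* separate fed from fasted livers in WT and overlap in KO.

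*Pcyt1a* (chromosome 16, 32430921 to 32475070, plus strand) encodes the alpha form of the enzyme that makes CDP-choline from phosphocholine, which is the usual rate-limiting step of the route. It had 65.1, 75.4 and 77.0 CPM in fed and 101.9, 93.1 and 89.6 CPM in fasted *Nts*+/+ livers. The livers labelled *Nts*-/- had 97.3, 94.8 and 62.0 CPM in the fed and 80.7, 79.5 and 84.8 CPM in the fasted state. Fed and fasted livers were separate in *Nts*+/+ only and overlapped in *Nts*-/-, where mouse 319 had the lowest of the fed values. The log2 fold change was 0.39 ± 0.15 (edgeR adjusted *p* = 0.0959) and −0.054 ± 0.15 (edgeR adjusted *p* = 0.851), and neither passed. The difference between these values was −0.44 ± 0.22 (95% interval −0.91 to 0.024, edgeR adjusted *p* = 0.897).

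The promoter of *Pcyt1a* is shown because it was the only member with a window that held the core of the sterol regulatory element, TCACCCCAC, in capitals here. This core was found in 0.551% of all windows on either strand. The window is chr16:32430671-32430970 on the plus strand, with the core at −116 from the start, and a neighbouring *Pcyt1a* start has the same site in its own window.
Pcyt1a: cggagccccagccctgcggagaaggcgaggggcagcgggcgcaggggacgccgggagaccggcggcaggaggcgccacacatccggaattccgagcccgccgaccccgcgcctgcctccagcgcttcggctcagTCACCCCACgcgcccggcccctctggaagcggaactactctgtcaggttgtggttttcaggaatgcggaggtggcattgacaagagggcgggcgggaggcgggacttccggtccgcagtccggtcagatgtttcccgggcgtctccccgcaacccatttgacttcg

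*Cept1* (chromosome 3, 106502260 to 106547802, minus strand) encodes the choline/ethanolaminephosphotransferase that joins CDP-choline or CDP-ethanolamine to diacylglycerol and so ends both routes. Its 4 groups crossed. The fed *Nts*+/+ livers had 88.3, 94.0 and 94.7 CPM and the fasted ones 78.8, 71.7 and 86.1 CPM, all lower. The fed livers labelled *Nts*-/- had 69.8, 71.3 and 76.9 CPM and the fasted ones 85.2, 84.8 and 86.1 CPM, all higher. The log2 fold change on fasting was −0.23 ± 0.10 (edgeR adjusted *p* = 0.15) in *Nts*+/+ and 0.23 ± 0.10 (edgeR adjusted *p* = 0.145) in *Nts*-/-, and neither passed. *Cept1* had fractional counts in 12 of 12 libraries, and its ends overlap *Dram2* by 5 bases and *Dennd2d* by 771 bases on the other strand.

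Ethanolamine kinase, the first step toward PE, is encoded by *Etnk1* (chromosome 6, 143167221 to 143232307, plus strand) and *Etnk2* (chromosome 1, 133363572 to 133380336, plus strand). *Etnk2* rose on fasting in both genotypes. It had 181, 151 and 166 CPM in fed and 322, 263 and 193 CPM in fasted *Nts*+/+ livers. The livers labelled *Nts*-/- had 168, 212 and 204 CPM in the fed and 268, 282 and 355 CPM in the fasted state. Fed and fasted livers did not overlap in either genotype, although mouse 322 lay close to the fed livers. The rise was 0.64 ± 0.18 (edgeR adjusted *p* = 0.0257), or 1.56-fold, in *Nts*+/+ and 0.63 ± 0.18 (edgeR adjusted *p* = 0.0284), or 1.55-fold, in *Nts*-/-. The call was lost in *Nts*+/+ without mouse 254, 257, 323, 265 or 282 (0.47 to 0.71, edgeR adjusted *p* up to 0.099) and in *Nts*-/- without mouse 277, 290 or 295 (0.50 to 0.68, adjusted *p* up to 0.122).

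*Etnk1* did not pass in either genotype, and its groups crossed in the opposite sense to those of *Cept1*. It had 58.0, 65.6 and 64.2 CPM in fed and 70.6, 77.5 and 78.9 CPM in fasted *Nts*+/+ livers. The livers labelled *Nts*-/- had 71.5, 73.6 and 80.5 CPM in the fed and 68.2, 66.7 and 65.1 CPM in the fasted state. The fasted livers were all higher than the fed ones in *Nts*+/+ and all lower in *Nts*-/-. The log2 fold changes were 0.27 ± 0.10 (edgeR adjusted *p* = 0.0834) and −0.17 ± 0.10 (edgeR adjusted *p* = 0.273). With the Wald test of DESeq2 the first of these passed (adjusted *p* = 0.0392).

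*Pcyt2* (chromosome 11, 120610087 to 120617936, minus strand) encodes the enzyme that makes CDP-ethanolamine, the step usually taken as limiting on the ethanolamine side. It had 404, 387 and 319 CPM in fed and 273, 268 and 271 CPM in fasted *Nts*+/+ livers. In livers labelled *Nts*-/- it had 356, 315 and 397 CPM in the fed and 291, 337 and 276 CPM in the fasted state. Fed and fasted livers were separate in *Nts*+/+ and overlapped in *Nts*-/-. *Pcyt2* fell by 0.45 ± 0.14 on the log2 scale (edgeR adjusted *p* = 0.0355), or 1.37-fold, in *Nts*+/+, and the value in *Nts*-/- was −0.24 ± 0.14 (edgeR adjusted *p* = 0.251). The *Nts*+/+ call was lost without mouse 254, 257, 265, 282 or 322 (−0.45 to −0.39, edgeR adjusted *p* up to 0.142), without the count filter (adjusted *p* = 0.0664) and with only the 6 mice compared (adjusted *p* = 0.0537). The fall in *Nts*+/+ was not shown to differ from the value in *Nts*-/- (difference 0.21 ± 0.19, 95% interval −0.20 to 0.63, edgeR adjusted *p* = 0.905).

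*Pisd* (chromosome 5, 32736301 to 32785646, minus strand) encodes phosphatidylserine decarboxylase, the mitochondrial enzyme that forms PE. It had 34.0, 39.0 and 36.6 CPM in fed and 47.6, 42.8 and 39.6 CPM in fasted *Nts*+/+ livers. In livers labelled *Nts*-/- it had 32.4, 38.5 and 31.7 CPM in the fed and 36.8, 40.5 and 38.3 CPM in the fasted state. The fasted livers were all higher than the fed ones in *Nts*+/+, whereas the groups overlapped in *Nts*-/-. The log2 fold changes of 0.25 ± 0.12 (edgeR adjusted *p* = 0.159) and 0.17 ± 0.12 (edgeR adjusted *p* = 0.341) did not pass. *Pisd* has copies in the genome that can share its reads and had fractional counts in 12 of 12 libraries, and with the counts of Pisd-ps1 (16 to 106) and Pisd-ps2 (1 to 8) added, the values were 0.20 and 0.16.

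*Pemt* (chromosome 11, 59970614 to 60046489, minus strand) encodes phosphatidylethanolamine N-methyltransferase, which converts PE to PC with methyl groups from S-adenosylmethionine. It had 352, 378 and 290.2 CPM in fed and 246, 225 and 246 CPM in fasted *Nts*+/+ livers. The livers labelled *Nts*-/- had 289.5, 295 and 361 CPM in the fed and 281, 211 and 257 CPM in the fasted state. The fasted livers lay below the fed ones in both genotypes. *Pemt* fell by 0.51 ± 0.15 on the log2 scale (edgeR adjusted *p* = 0.0303), or 1.42-fold, in *Nts*+/+, and the value in *Nts*-/- was −0.34 ± 0.15 (edgeR adjusted *p* = 0.136). The *Nts*+/+ call was lost without mouse 254, 257, 265, 282 or 322 (−0.53 to −0.42, edgeR adjusted *p* up to 0.123). The difference between the genotypes in this response was 0.17 ± 0.21 (95% interval −0.28 to 0.62, edgeR adjusted *p* = 0.934).

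*Lpcat3* (chromosome 6, 124663027 to 124704418, plus strand) encodes the acyltransferase that places polyunsaturated chains on lysophosphatidylcholine. It had 102.1, 88.6 and 79.6 CPM in fed and 78.1, 80.2 and 71.5 CPM in fasted *Nts*+/+ livers. In livers labelled *Nts*-/- it had 103, 80.9 and 91.4 CPM in the fed and 69.2, 81.4 and 75.2 CPM in the fasted state. The fed and fasted livers overlapped in both genotypes. The log2 fold changes of −0.23 ± 0.13 (edgeR adjusted *p* = 0.23) and −0.29 ± 0.13 (edgeR adjusted *p* = 0.144) did not pass. *Lpcat3* overlaps *Emg1* on the other strand by 334 bases, its counts were fractional in 12 of 12 libraries, and *Emg1* had 829 to 1977 counts.

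**Figure D3:**
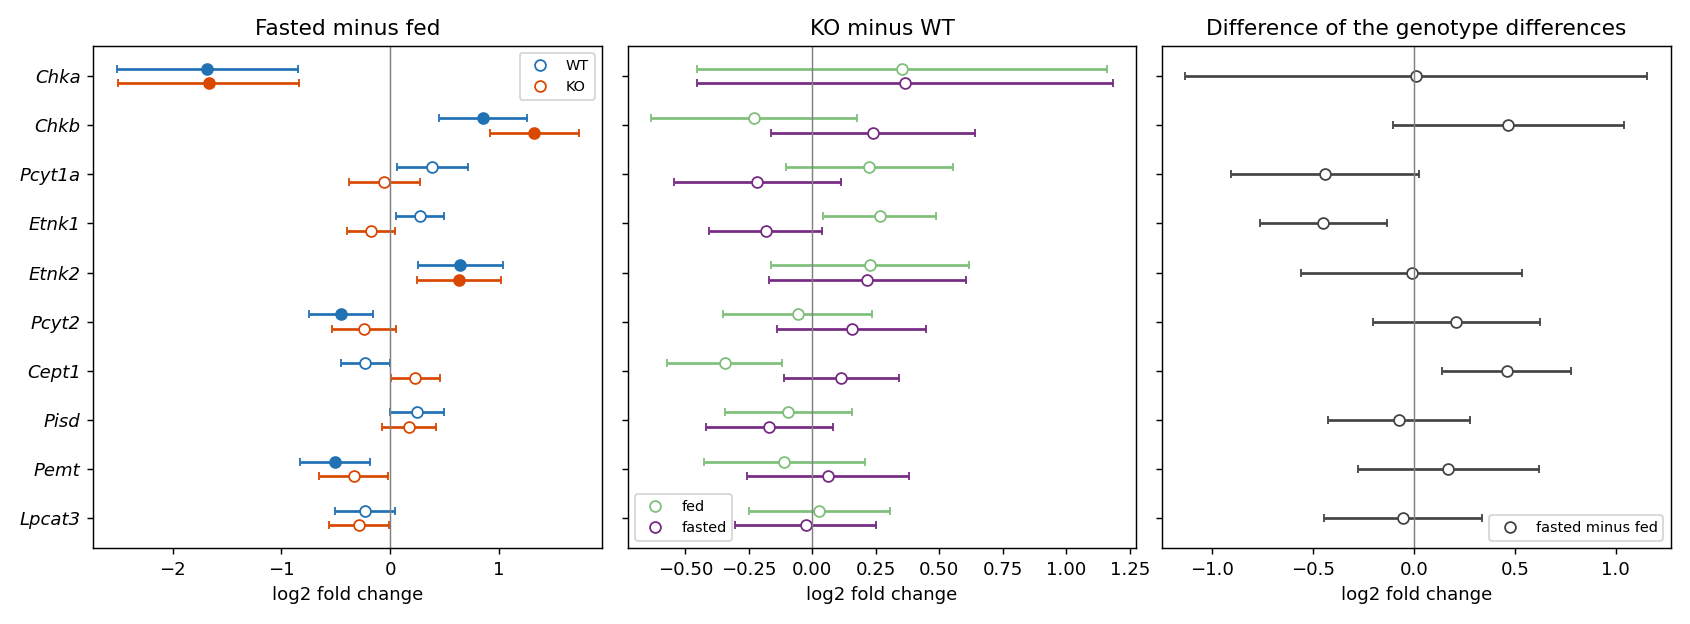
Log2 fold change (horizontal axes) with its 95% interval for each member from the edgeR fit over 12 livers, as fasted minus fed in each genotype (left), KO minus WT in each feeding state (middle) and the difference between these genotype differences (right). Filled points passed an adjusted *p* of 0.05, which were 5 members in WT and 3 in KO on fasting and 0 in the middle and right panels.

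The remaining within-liver ratios moved less than *Chka*/*Chkb*. In *Nts*+/+ livers the log2 ratio of *Pcyt1a* to *Pcyt2* was −2.35 ± 0.29 (SD, 3 livers) in the fed and −1.51 ± 0.087 in the fasted state, and in *Nts*-/- it was −2.09 ± 0.51 and −1.88 ± 0.19. *Pemt* acts in the methylation route and *Pcyt1a* in the CDP-choline route. Their ratio was 2.22 ± 0.27 in fed and 1.33 ± 0.11 in fasted *Nts*+/+ livers. In livers labelled *Nts*-/- it was 1.92 ± 0.54 and 1.60 ± 0.19. This ratio of RNA counts does not measure the use of either route. Fed and fasted livers were thus separate for both ratios in *Nts*+/+ (two-sided exact permutation *p* = 0.1, the smallest possible) and overlapped in *Nts*-/- (*p* = 0.6 and 0.5 in the same exact test). *Etnk1* over *Etnk2* was −1.36 ± 0.15 in fed and −2.17 ± 0.25 in fasted *Nts*-/- livers (exact permutation *p* = 0.1), against −1.40 ± 0.22 and −1.75 ± 0.45 in *Nts*+/+ (*p* = 0.3). Between the genotype labels, fasted livers did not overlap for *Pcyt1a*/*Pcyt2*, at −1.88 in *Nts*-/- and −1.51 in *Nts*+/+ (exact permutation *p* = 0.1). The other ratio comparisons between genotypes had an exact permutation *p* of 0.2 to 0.8. After adjustment over the 16 ratio tests the smallest exact *p* was 0.267.

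Levels were compared between members only after division by the length of the longest annotated transcript of each gene. The order depends on that length, and which transcripts the livers expressed was not tested. Per kilobase (kb), *Pemt*, *Pcyt2* and *Etnk2* led in this order in all 4 groups, and the livers did not overlap between neighbours. *Pemt* had 290 ± 38.4 CPM per kb in fed *Nts*+/+ livers, *Pcyt2* 149 ± 18.1 and *Etnk2* 37.7 ± 3.42 (SD, 3 livers). *Chka* ranked 4 of 10 in both fed groups, at 16.7 ± 1.96 CPM per kb in *Nts*+/+ and 21.4 ± 12.4 in *Nts*-/-, and 10 of 10 in both fasted groups, at 5.2 ± 1.64 and 6.72 ± 1.60. *Chkb* went from rank 7, at 11.2 ± 2.55 and 9.53 ± 2.32 CPM per kb, to rank 4, at 20.2 ± 0.53 and 23.9 ± 3.63. In fed livers *Chka* and *Lpcat3* overlapped as neighbours in both genotypes, as did *Pcyt1a* and *Chkb*. In fasted livers the lowest members, *Etnk1*, *Pisd*, *Cept1* and *Chka*, had means of 5.2 to 8.19 CPM per kb, and *Chka* overlapped the member above it in both genotypes.

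**Figure D4:**
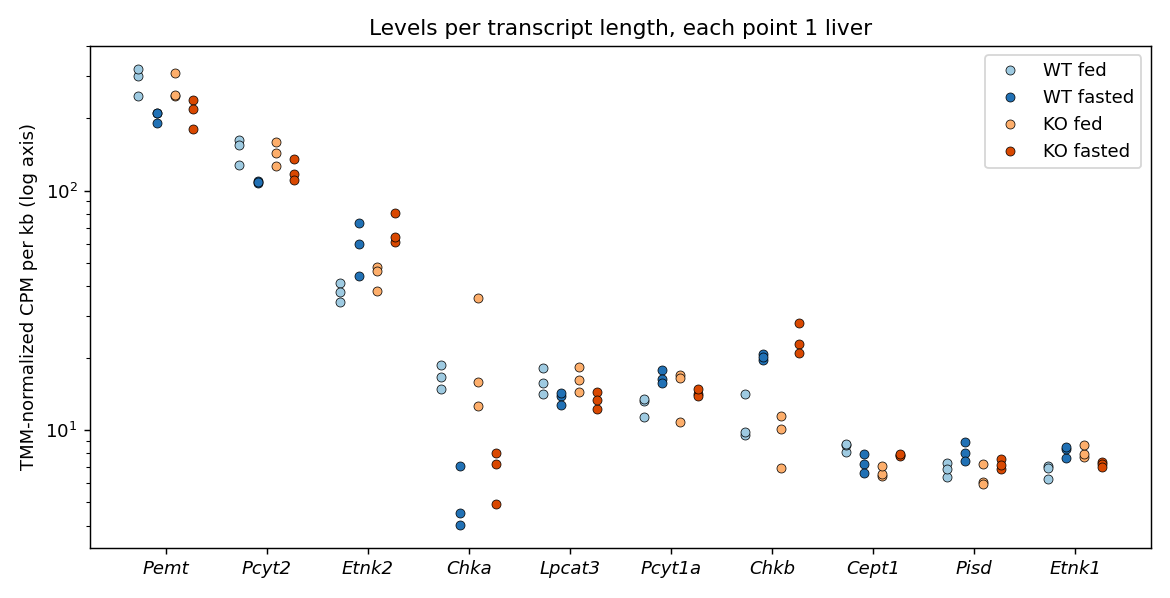
TMM-normalized CPM per kb of the longest annotated transcript (vertical log axis) for the 10 members, ordered by their mean in fed WT livers. Each point is 1 liver and colours mark the 4 groups. *Pemt*, *Pcyt2* and *Etnk2* lead in every group, and *Chka* goes from 16.7 and 21.4 CPM per kb in the fed to 5.2 and 6.72 in the fasted groups.

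None of the members passed between the genotype labels. In fed livers edgeR called 0 of 10 members and 0% of the 13812 genes, with 2 members and 876 genes at an unadjusted *p* under 0.05, and DESeq2 called 8 genes, no member among them. In fasted livers edgeR called 0 of 10 members and 0% of genes, with 0 members and 685 genes at an unadjusted *p* under 0.05, and DESeq2 called 4 genes, again no member. The difference of these genotype differences was called for 0 of 10 members and 0% of genes, with 2 members and 663 genes at an unadjusted *p* under 0.05, and for 3 genes with DESeq2, of which none was a member.

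*Cept1* and *Etnk1* were the members with an unadjusted *p* under 0.05. Fed livers labelled *Nts*-/- had less *Cept1* than the fed *Nts*+/+ livers in every mouse, with a log2 difference of −0.35 ± 0.10 (95% interval −0.57 to −0.12, edgeR adjusted *p* = 0.734). They had more *Etnk1* in every mouse, at 0.26 ± 0.10 (95% interval 0.042 to 0.49, edgeR adjusted *p* = 0.734). In fasted livers the log2 differences were 0.11 ± 0.10 for *Cept1* (95% interval −0.11 to 0.34) and −0.18 ± 0.10 for *Etnk1* (−0.41 to 0.039). The change between the feeding states was 0.46 ± 0.15 for *Cept1* (95% interval 0.14 to 0.78, edgeR adjusted *p* = 0.897). For *Etnk1* it was −0.45 ± 0.15 (95% interval −0.76 to −0.13, edgeR adjusted *p* = 0.897). These values fail the adjustment over all genes. Under the alternatives run, the lowest adjusted *p* of the fed difference was 0.203 for *Cept1* and 0.459 for *Etnk1*, and that of the change between feeding states was 0.297 and 0.345 (edgeR or DESeq2).

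Among the other 8 members the fed log2 difference ranged from −0.23 (*Chkb*, 95% interval −0.64 to 0.18) to 0.35 (*Chka*, −0.45 to 1.16). The *Chka* value rested on mouse 319 and was −0.23 without it. In fasted livers the members ranged from −0.22 (*Pcyt1a*, 95% interval −0.55 to 0.11) to 0.37 (*Chka*, −0.45 to 1.18), and *Chkb* was at 0.24 (−0.16 to 0.64). The values of *Lpcat3* were nearest to 0 in both states, with intervals from −0.25 to 0.30 in fed and −0.30 to 0.25 in fasted livers. The livers of the genotypes did not overlap for 2 members in the fed state, *Cept1* and *Etnk1*, beside 10.7% of all genes. After fasting they did not overlap for 4 members, beside 12.2% of all genes, with *Chkb* and *Pcyt2* higher and *Etnk1* and *Pcyt1a* lower in livers labelled *Nts*-/-.

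The counts of the other lists below stand beside the 18.1% of all tested genes called on fasting in *Nts*+/+ and 16.8% in *Nts*-/-. The list of other CDP-route genes had 4 tested, *Chpt1*, *Ept1*, *Etnppl* and *Phospho1*, and not all of them act in synthesis. Of these, 2 rose in *Nts*+/+ and 1 in *Nts*-/-, with 0 lower. Their median log2 fold change was 0.65 and 0.35. *Chpt1*, the cholinephosphotransferase of the last step, had 76.8 to 142 CPM in fed and 218 to 267 CPM in fasted *Nts*+/+ livers. It rose by 1.25 ± 0.21 (edgeR adjusted *p* = 0.00158), and in *Nts*-/-, where the ranges were 94.0 to 127 and 231 to 239 CPM, by 1.06 ± 0.21 (adjusted *p* = 0.00428). *Phospho1*, a phosphatase of phosphocholine and phosphoethanolamine, rose in *Nts*+/+ (1.19 ± 0.30, edgeR adjusted *p* = 0.0168), and its value in *Nts*-/- was 0.88 ± 0.30 (adjusted *p* = 0.0614). Of the phosphatidylserine synthases and *Pisd* copies, 3 were tested and 0 passed in edgeR in either genotype, with 1 at an unadjusted *p* under 0.05 in *Nts*+/+ and 0 in *Nts*-/-.

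Of 5 tested genes of choline and ethanolamine uptake, 1 rose and 1 fell in each genotype, with a median of −0.16 and −0.23. *Slc44a1*, a choline transporter-like protein, fell in both, with log2 fold changes of −0.63 ± 0.15 (edgeR adjusted *p* = 0.0123) and −0.89 ± 0.15 (adjusted *p* = 0.00168) in *Nts*+/+ and *Nts*-/-. *Slc22a3*, a transporter of organic cations, rose by 2.13 ± 0.44 (edgeR adjusted *p* = 0.00801) and 1.64 ± 0.42 (adjusted *p* = 0.0234). Of 11 tested genes of choline oxidation and the methyl cycle, 4 rose and 0 fell in each genotype, with a median of 0.48 and 0.52. *Mat1a*, which makes the methyl donor used by *Pemt*, rose by 1.67 ± 0.25 and 1.69 ± 0.25 (edgeR adjusted *p* = 0.000833 and 0.000661), and *Ahcy*, which clears the product of methylation, by 0.88 ± 0.16 and 1.07 ± 0.16 (0.00283 and 0.000727). *Nnmt*, which methylates nicotinamide, rose by 1.31 ± 0.24 and 1.37 ± 0.25, and *Mat2a*, the other methionine adenosyltransferase, by 0.69 ± 0.15 and 0.88 ± 0.15.

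Of 20 tested genes of phospholipid breakdown, 3 rose and 1 fell in *Nts*+/+ and 2 rose and 2 fell in *Nts*-/-, with a median of −0.10 and 7.4e-05, and these 4 of 20 in each genotype are near the share among all genes. *Gde1*, a glycerophosphodiesterase, rose by 1.56 ± 0.18 and 1.36 ± 0.18 (edgeR adjusted *p* = 0.000149 and 0.000248). *Pla2g12a*, a secreted phospholipase A2, rose by 1.41 ± 0.20 and 1.45 ± 0.20 (0.000551 and 0.000387). *Pld4*, which is known as a nuclease despite its name, had −0.94 ± 0.22 (edgeR adjusted *p* = 0.01) in *Nts*+/+, where it passed, and −0.44 ± 0.22 (adjusted *p* = 0.188) in *Nts*-/-. *Pld1*, a phospholipase D, had −0.27 ± 0.16 (edgeR adjusted *p* = 0.276) in *Nts*+/+ and −0.68 ± 0.16 (adjusted *p* = 0.0119) in *Nts*-/-, where it passed. The change between the genotypes was called for neither (edgeR adjusted *p* = 0.897 in both). Of 6 tested acyltransferases besides *Lpcat3*, 1 rose in *Nts*+/+ and 1 fell in *Nts*-/-, with a median of −0.060 and −0.064. These were *Lclat1*, at 0.53 ± 0.14 and 0.32 ± 0.14 (edgeR adjusted *p* = 0.0216 and 0.143), and *Mboat7*, at −0.24 ± 0.11 and −0.46 ± 0.11 (0.169 and 0.0143), which act mainly on cardiolipin and phosphatidylinositol.

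Of 12 tested genes that move or use PC, 4 rose and 1 fell in *Nts*+/+ and 3 rose and 1 fell in *Nts*-/-, with a median of 0.30 and 0.17. *Abcb4*, the canalicular floppase that delivers PC into bile, had 196 to 268 CPM in fed and 438 to 544 CPM in fasted *Nts*+/+ livers. It rose by 1.18 ± 0.16 and 1.35 ± 0.16 in the 2 genotypes (edgeR adjusted *p* = 0.000436 and 0.000144). *Pctp*, the PC transfer protein, rose by 0.89 ± 0.24 and 1.14 ± 0.24 (0.022 and 0.00648), *Lcat*, which uses PC to esterify plasma cholesterol, by 0.55 ± 0.13 and 0.43 ± 0.13 (0.0105 and 0.035), and *Atp8b1*, a flippase, fell, at −0.54 ± 0.16 and −0.70 ± 0.16 (0.0293 and 0.00857). Of the 3 lipins, which make diacylglycerol, *Lpin2* rose in *Nts*+/+ (1.05 ± 0.30, edgeR adjusted *p* = 0.0323). In *Nts*-/- 0 passed in edgeR and 1 had an unadjusted *p* under 0.05, which was *Lpin2* at 0.82 ± 0.30 (adjusted *p* = 0.0822).

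**Figure D5:**
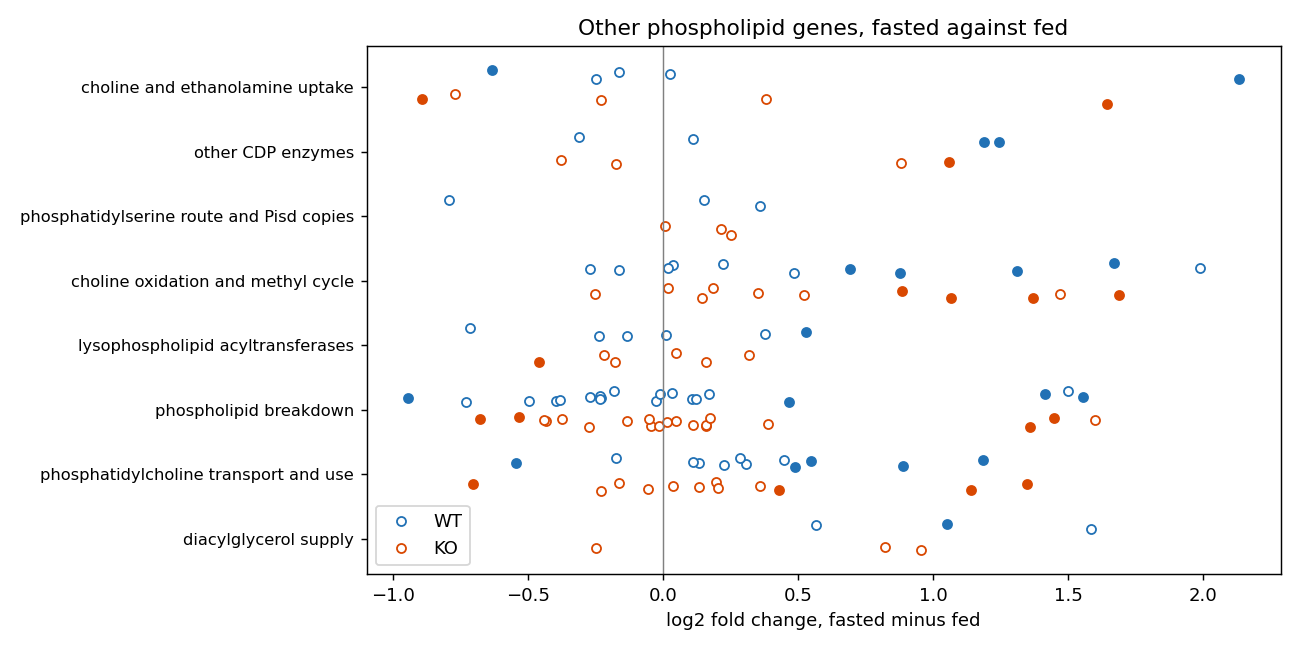
Log2 fold change, fasted minus fed (horizontal axis), of the tested genes in 8 lists of other phospholipid genes, with WT and KO in separate rows. Each point is 1 gene, filled where it passed an adjusted *p* of 0.05 in edgeR, and the vertical scatter within a row is for display. Filled points of the choline oxidation and methyl cycle list all lie above 0, with 4 in each genotype.

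Of 10 transcription factors known to regulate lipid genes, 2 rose and 3 fell in *Nts*+/+ and 1 rose and 3 fell in *Nts*-/-, with a median of 0.079 and 0.086. *Srebf1*, a lipogenic factor, had 129 to 319 CPM in fed and 18.2 to 37.9 CPM in fasted *Nts*+/+ livers, and fell with log2 fold changes of −2.90 ± 0.37 and −3.32 ± 0.38 in the 2 genotypes (edgeR adjusted *p* = 0.000622 and 0.000254). *Ppard*, a related receptor of *Ppara*, fell too, at −1.93 ± 0.21 and −2.67 ± 0.22 (0.000123 and 1.05e-05), and so did *Srebf2*, at −0.64 ± 0.16 and −1.29 ± 0.16 (0.0142 and 0.000176). *Ppara*, a receptor for fatty acids, rose in *Nts*+/+ (0.89 ± 0.21, edgeR adjusted *p* = 0.0119) and stood at 0.60 ± 0.21 in *Nts*-/- (adjusted *p* = 0.0687). Of 14 genes known to respond to fasting, 4 rose and 6 fell in *Nts*+/+ and 5 rose and 6 fell in *Nts*-/-. None of the genes in these lists passed in edgeR between the genotype labels in either feeding state.

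The genes nearest to *Chka*, *Chkb* and *Etnk2* over the 12 livers were taken by the root mean square difference in log2 CPM after each gene was centred on its own mean, among 13801 tested genes with a distinct symbol. For *Chka*, whose own root mean square deviation was 0.914, they were *Spsb4* (0.332), the immunoproteasome subunit *Psmb10* (0.349) and *Dpy19l3* (0.364). For *Chkb* (0.599) they were *Brap* (0.183), *Tmem82* (0.185) and *Nrbp2* (0.186). For *Etnk2* (0.386) they were the succinate-CoA ligase subunit *Suclg1* (0.135), the mitochondrial phosphatase *Ptpmt1* (0.138) and *Rnf149* (0.144). All 9 moved in the direction of their member on fasting in both genotypes, as the measure requires, and the livers share the feeding contrast.

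Of the 8 hepatocyte markers, 2 rose and 2 fell on fasting in each genotype. Markers of other liver cells also moved with fasting beside the changes above. The summed stellate cell markers (6 genes, none at 0) were 114 to 124 CPM in fed and 84.2 to 90.9 CPM in fasted *Nts*+/+ livers, and 116 to 159.7 and 67.5 to 83.4 CPM in *Nts*-/-. Of these 6 genes, 2 fell in *Nts*+/+ and 5 in *Nts*-/-. Sinusoidal endothelium (6 genes) was at 172 to 243 and 139.8 to 145 CPM in *Nts*+/+ and at 190.3 to 225 and 128 to 160.3 CPM in *Nts*-/-, with 2 genes lower and 1 higher in the former and 1 lower in the latter. Cholangiocyte markers (5 genes, 4 tested) were at 33.9 to 50.5 and 13.3 to 26.9 CPM and at 34.5 to 39.3 and 14.3 to 27.7 CPM, with 1 gene lower in each genotype. Kupffer cell markers (7 genes) were at 493 to 570.2 and 239 to 434 CPM in *Nts*+/+, with 1 gene lower, and overlapped in *Nts*-/-, at 309 to 469 and 290.4 to 471 CPM, with 0 called. Lymphocyte markers (7 genes) summed to 4.3 to 8 CPM with 0 called. Their part in the members' changes was not tested. Adipocyte markers summed to at most 0.254 CPM, with *Lep* and *Retn* at 0, and skeletal muscle markers to at most 0.891 CPM, with *Acta1* and *Myh4* at 0. Pancreas markers summed to 3.13 to 14.1 CPM, nearly all from *Cela1*, with *Cpa1*, *Pnlip* and *Ctrb1* at 0.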

How the data were processed

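Total RNA of snap-frozen liver from 12 mice was sequenced. The deposited table holds expected counts, which the authors estimated per gene with RSEM after Trimmomatic on GRCm38, per the submitters' processing notes. Library strand and the annotation release are not given in the sources used here. Expected counts were rounded to whole counts, and columns of other samples numbered 0. The table has 1220 genes without a symbol.

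In R 4.3.3, edgeR 4.0.16 (filterByExpr, TMM) fitted 1 mean per group over all 12 mice with robust quasi-likelihood tests, and 13812 genes were tested (common biological coefficient of variation 0.202). Benjamini-Hochberg adjustment ran over all tested genes. Each SE of a log2 fold change was derived as its size divided by the square root of the quasi-likelihood F statistic. The 95% intervals were built from this SE. The labels give 1 batch. Nothing beyond mouse numbers separates the animals. The edgeR *p* values set a difference against a spread between mice that was estimated over all 4 groups. Lengths are those of the longest GENCODE vM39 transcript and were found, through the Ensembl identifier, for 99.2% of tested genes. Ratios used the rounded counts with nothing added, and adding 0.5 counts to both genes was an alternative. Counting floors cover counting error only. On simulated counts for fasting in *Nts*+/+ over 13812 genes, 65 of 100 genes changed 2-fold, 90 of 100 changed 4-fold and 7 of 13612 unchanged genes were called. Alternatives were fits to the 6 mice of a comparison alone, each mouse left out in turn, RLE scaling, dropping the filter or raising it to 10 counts in all 12 mice, and DESeq2 1.42.0 (Wald test). *Chkb* with *Cpt1b*, and *Pisd* with its copies, were summed after seeing the data.

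The members and lists were chosen with earlier results of these data known. All 10 members are named, with up to 3 genes of smallest *p* among those called per list in each fasting comparison, the *Pisd* copies, and the 3 genes nearest to each member called in both. *Selenoi*, which the table lists as *Ept1*, Pisd-ps3, *Flvcr1* and *Flvcr2* had no row under these symbols.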

Additional observations from a re-analysis of the deposited data

How the results depend on the processing

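Leaving out 1 mouse at a time gave 1 to 4 members past the threshold for fasting in *Nts*+/+ and 1 to 3 in *Nts*-/-, and 0 in each genotype comparison. Fewer mice enter these fits. The other alternatives gave 4 to 6 and 2 to 3 members. No paired analysis was possible because the labels give only mouse numbers and do not say which mice shared a litter. The fits treated all mice as independent. Of the members' log2 fold changes, 313 kept their direction and side of the threshold when a mouse was left out, 20 no longer passed and 27 reversed. Under the other alternatives 244 kept both, 3 no longer passed, 1 newly passed and 2 reversed. Every reversal was of a value that had not passed. Ranges with 1 mouse left out were −0.23 to 0.061 for *Pcyt1a* on fasting in *Nts*-/-. For fed genotype differences they were −0.23 to 0.62 for *Chka*, −0.15 to 0.021 for *Pcyt2* and −0.060 to 0.12 for *Lpcat3*. For fasted genotype differences they were −0.038 to 0.17 for *Pemt* and −0.086 to 0.023 for *Lpcat3*. For the difference of the differences they were −0.25 to 0.59 for *Chka*, −0.18 to 0.17 for *Etnk2*, −0.14 to 0.040 for *Lpcat3* and −0.14 to 0.027 for *Pisd*, and the value was −0.0069 for *Chka* without the count filter and 0.0048 for *Etnk2* with at least 10 counts in every mouse. Of the log2 ratios, *Chka*/*Chkb* between fasted genotypes ranged from −0.026 to 0.40, *Etnk1*/*Etnk2* between fed genotypes from −0.079 to 0.14 and *Pcyt1a*/*Pcyt2* on fasting in *Nts*-/- from −0.078 to 0.39. The cause was not tested. Over all genes, leaving out a mouse gave 1224 to 2418 calls in *Nts*+/+ and 1358 to 2631 in *Nts*-/-, beside 2501 and 2326 with all mice.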
